A study of Caenorhabditis elegans with 6 samples.

Results

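The globin family of Caenorhabditis elegans was examined in RNA from neuronal nuclei of animals labelled null for 6 CUT homeobox genes and of controls. Its members were taken as every row of the deposited table whose symbol is glb- followed by a number, which gave 34 genes among 41862 features. All 34 are protein-coding in the WBcel235 annotation. The mutant group holds 3 libraries (replicates 1 to 3) from strain OH17055, labelled [UPN INTACT;Sextuple] and described as null for ceh-48, ceh-21, ceh-44, ceh-39, ceh-41 and ceh-38. The control group holds 3 libraries from strain OH16748, labelled wildtype and carrying the UPN INTACT transgene otIs790. Each genotype is therefore a single strain, and both strain labels carry the UPN INTACT tag. All animals were synchronised L1 larvae, the stage that hatches from the egg, grown on enriched plates with NA22 bacteria. INTACT purifies nuclei by means of a tag expressed in selected cells, and all 6 libraries come from the purified fraction. The labels do not say whether replicates came from separate cultures, so the p-values below measure the spread between these libraries, which may be technical.

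Globins are proteins that hold a heme group in a helical pocket and bind oxygen or other small gases, or pass electrons. Vertebrates use them to carry oxygen in blood and muscle, whereas the nematode family is large and diverse, and reporter studies place many of its members in neurons. Among the studied worm globins, GLB-5 tunes the response of oxygen-sensing neurons, GLB-12 acts in redox signalling in the gonad, GLB-26 affects the defecation rhythm, and GLB-33 joins a globin domain to a receptor-like membrane part. CUT homeobox proteins are transcription factors with a CUT domain and a homeodomain, and the study's title concerns the expression of genes shared by all neurons. The comparison asks how the globin RNAs of the neuronal fraction differ between animals with and without these factors.

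The libraries held 15500882 to 20844986 recovered reads. The values below are normalized counts, that is, gene counts divided by the authors' size factor for each library. The 6 targeted genes differed by -7.29 to 0.82 on the log2 scale. Of these, 5 were lower in the mutant, while ceh-44 was higher at 16831 normalized counts, against 9563 in controls, so its RNA was not lost in the libraries labelled null for it. Mutant means were 17.1 for ceh-21 and 17.2 for ceh-39, against 939 and 834 in controls. More RNA remained for ceh-38 (2155 in mutants against 3728 in controls), ceh-48 (586 against 1326) and ceh-41 (58.1 against 171). The 30 listed pan-neuronal genes were all detected. Their summed level was 418534 to 766386 in mutant libraries and 846348 to 1063680 in control libraries. Markers of other tissues were present in both groups. The 12 body wall muscle markers summed to 228501 to 270616 in mutants and 197338 to 236121 in controls, and the 7 pharynx muscle markers to 57336 to 79712 in mutants and 29193 to 44500 in controls.

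Globin RNA as a whole was lower in the mutant fraction. The 34 genes summed to 25968, 20093 and 21356 normalized counts in mutant replicates 1, 2 and 3, against 33976, 31508 and 31565 in control replicates 1, 2 and 3. The groups did not overlap, and the mutant mean was 69.5% of the control mean. As a share of all normalized counts, globins made up 0.119% to 0.133% of mutant libraries and 0.160% to 0.164% of control libraries. The summed pan-neuronal level stood at 62.5% of control, and within the mutant group both sums were highest in replicate 1 and lowest in replicate 2. The pan-neuronal sum is weighted towards abundant genes, such as unc-44 and egl-3, with control means of 215803 and 155125. Of the 30 genes, 26 had a fitted difference below 0, with a median of -0.54 over the list. Those above 0 were snt-1 (0.0086), unc-33 (0.081), unc-64 (0.16) and unc-26 (0.26). Fewer neuronal nuclei in the mutant preparations and less globin RNA per nucleus cannot be told apart in these samples.

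All 34 globin genes passed the filter of a mean of at least 10 normalized counts. Of these, 15 fell in the mutant and 0 rose at an adjusted p under 0.05 (limma on log2(normalized count + 1), Benjamini-Hochberg over 17900 genes). Across all genes tested, 10.5% were called lower and 7.56% higher, whereas the globins called lower made up 44.1% of the family. In the fit restricted to genes with a mean of at least 50, a level that every globin reached, 15 globins and 13.7% of all genes were lower. At an unadjusted p under 0.05 (limma), 18 globins differed, a count for which no share over all genes was taken. The fitted difference, mutant minus control, was below 0 for 32 of the 34 genes, with a median of -0.44 over the family and -0.023 over all genes. Every mutant library was below every control library for 19 globins, and the opposite held for 0; over all genes these patterns occurred for 20.4% and 19.5%. Taken library by library, the median globin stood at -0.41, -0.74 and -0.48 from the control mean on the log2 scale in mutant replicates 1, 2 and 3. The median over all genes stood at -0.00063, -0.018 and -0.029 in the same libraries. The number of lower calls was 3 without mutant replicate 3, 6 without control replicate 1 and 6 without control replicate 2. It was 5 without control replicate 3 and 5 without a variance trend. Over all genes, 5.55%, 5.38%, 4.86%, 5.61% and 7.25% were called lower in these fits, in the same order. The genes glb-12, glb-1 and glb-7 passed in all 18 alternatives, and the other 12 fell short in 2 to 10 of them.

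**Figure D1:**
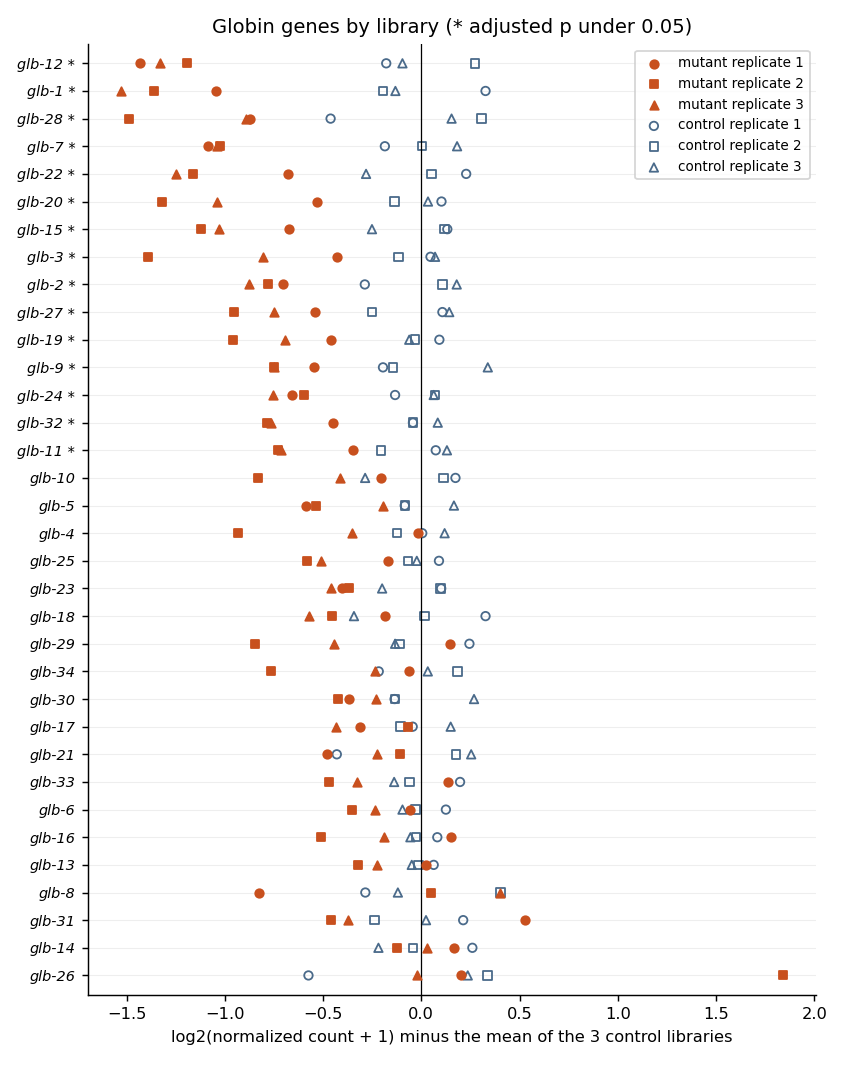
Log2(normalized count + 1) of each globin gene in each library, minus the mean of the 3 control libraries; filled symbols are mutant and open symbols control libraries, the shape gives the replicate number, and stars mark the 15 genes past the threshold. Most filled symbols lie left of the open ones, and in the bottom row mutant replicate 2 lies far to the right for glb-26.

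**Figure D2:**
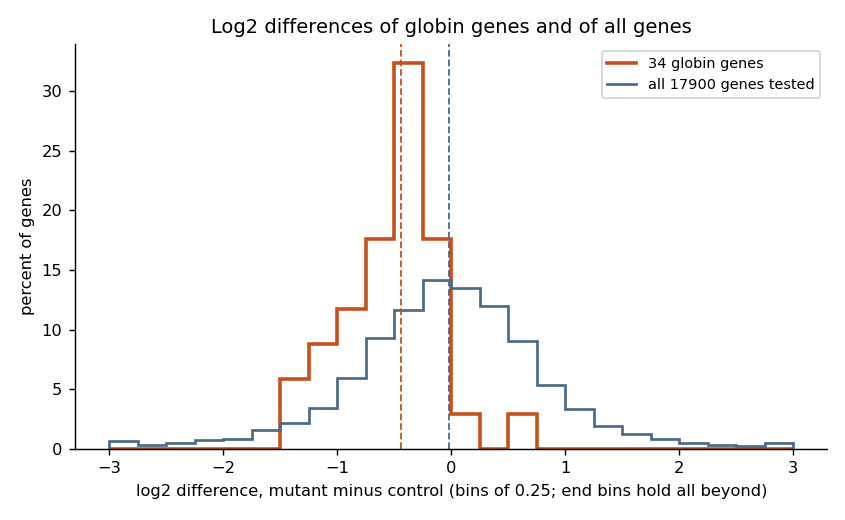
Percent of genes in bins of the log2 difference (mutant minus control) for the 34 globin genes and for all 17900 genes tested, with dashed lines at the medians. The globin distribution is centred at -0.44 and that of all genes at -0.023, and both distributions overlap widely.

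The globin with the smallest adjusted p was glb-12 (WBGene00008256, chromosome II), whose protein produces superoxide and takes part in redox signalling in the somatic gonad. It had 459, 542 and 492 normalized counts in mutant replicates 1, 2 and 3, against 1096, 1499.8 and 1160.1 in control replicates 1, 2 and 3. The mutant libraries lay close together and at less than the lowest control, and the mean was 39.8% of that in controls. The log2 difference was -1.32 (SE 0.18; adjusted p 0.00159 by limma). Its neighbour in the ranking was glb-1 (WBGene00014030, chromosome III), which encodes the smallest protein of the family, 159 residues in the annotation, with a myoglobin-like fold that binds oxygen. Its values were 287, 231 and 205 in mutants, against 745, 518 and 542 in controls. The groups did not overlap, and the difference was -1.31 (SE 0.21; adjusted p 0.00368 by limma). The third gene that passed in all alternatives was glb-7 (WBGene00016024, chromosome IV). It measured 284, 297 and 294 normalized counts in mutants and 533, 607 and 687 in controls, so that mutants varied less among themselves than controls, and the difference was -1.05 (SE 0.17; adjusted p 0.00402 by limma).

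A further pair of genes differed by more than 1 on the log2 scale. The gene glb-22 (chromosome V) had 497, 356 and 335 normalized counts in mutants and 933, 826 and 655 in controls. Mutant replicate 1 was the highest mutant library, yet it stayed below the lowest control, and the difference was -1.03 (SE 0.21; adjusted p 0.0110 by limma). The gene glb-28 (chromosome X) was the least abundant of the genes that fell, with 106, 69.1 and 105 normalized counts in mutants and 142, 242 and 217 in controls. Control replicate 1 came nearest to the mutant range. Its difference was -1.08 with a larger error (SE 0.28; adjusted p 0.0266 by limma).

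**Figure D3:**
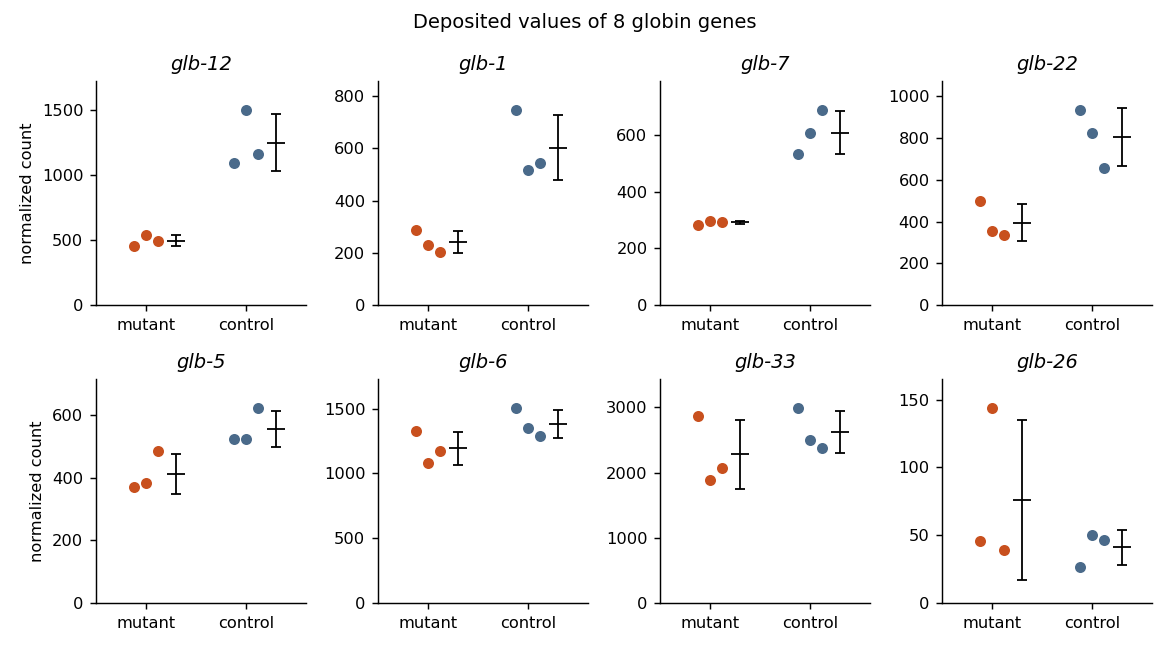
Deposited normalized counts of 8 globin genes, with each point a library, mutant left and control right, and the horizontal bar and whiskers giving the mean and SD of 3 libraries. The groups are apart for glb-12, glb-1, glb-7, glb-22 and glb-5, while they overlap for glb-6, glb-33 and glb-26.

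The other 10 genes that fell had differences between -0.96 and -0.60, and none of them had overlapping groups. On the X chromosome, glb-20 had 484, 279.6 and 340.2 normalized counts in mutants and 751, 636 and 716 in controls. On chromosome V, glb-15 had 364, 267 and 284 in mutants and 636, 630.0 and 487 in controls. For both genes mutant replicate 1 was the highest mutant library, and their adjusted p-values were 0.0165 and 0.0121 (limma, Benjamini-Hochberg). The abundant gene glb-3, also on chromosome V, had the widest spread among mutants of these 10, with 1232, 631 and 946 normalized counts, against 1712, 1528 and 1739.6 in controls. Its difference was -0.88 with an SE of 0.23. The order of the mutant libraries in glb-3, with replicate 1 highest and replicate 2 lowest, was also that of the summed globins.

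Of the remaining genes that fell, glb-2 and glb-19 lie on chromosome IV. The values of glb-2 were 264, 250.3 and 234 normalized counts in mutants and 353, 464 and 488 in controls. Those of glb-19 were 1119.9, 792 and 952 in mutants and 1643, 1509 and 1478 in controls. In both genes the highest mutant library remained well below the lowest control. On chromosome II, glb-27 had 521, 392 and 451 normalized counts in mutants and 818, 638 and 838 in controls. Also on chromosome II, glb-9 had 1280.4, 1113 and 1114 in mutants and 1636, 1695 and 2368 in controls, where control replicate 3 stood above the other 2. The differences of these 4 genes were -0.79, -0.71, -0.75 and -0.68, in the order given (limma adjusted p 0.0218, 0.0224, 0.0241 and 0.0314).

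The genes glb-24 and glb-32, both on chromosome V, moved by the same amount, -0.67, with the smallest errors of the genes that fell (SE 0.15 and 0.16). For glb-24 the values were 944, 984 and 883 normalized counts in mutants and 1357, 1562 and 1555 in controls. For glb-32 they were 1153, 913 and 925 in mutants and 1529, 1530.1 and 1669 in controls. The smallest called difference, -0.60, was that of glb-11 on chromosome III, with 1418, 1087 and 1097 normalized counts in mutants and 1898, 1566 and 1975 in controls. Mutant replicate 1 came nearest to the controls, and the adjusted p of glb-11 was 0.0433 by limma. It passed in 8 of the 18 alternatives, the fewest of the 15 genes. It fell short in each of the fits without mutant replicate 2, without mutant replicate 3 and without each of the 3 control replicates.

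The globins glb-5, glb-6 and glb-33, each known from neurons, did not pass the threshold. The gene glb-5 (WBGene00015964, chromosome V) encodes a globin of the URX, AQR, PQR and BAG sensory neurons that adjusts their response to oxygen, and the Bristol laboratory strain is known to carry an allele of reduced function. Which allele these strains carry was not examined here. It had 369, 383 and 485 normalized counts in mutants and 524, 525 and 623 in controls. Every mutant library was below every control, yet mutant replicate 3 approached the controls, and the difference of -0.44 (SE 0.18) had an adjusted p of 0.121 (limma, Benjamini-Hochberg). The adjusted p of glb-5 was above 0.05 in all 18 alternatives, between 0.0688 and 0.379.

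Next to glb-5, with no protein-coding gene between them and on the opposite strand, lies glb-6 (WBGene00015969), which encodes a neuronal globin whose heme iron is held by a pair of histidines and which takes part in electron transfer. It had 1327, 1080.1 and 1172 normalized counts in mutants and 1506, 1353 and 1292 in controls. The groups overlapped, with a difference of -0.22 (SE 0.16; adjusted p 0.365 by limma). The gene glb-33 (WBGene00022284, chromosome V) encodes the longest protein of the family at 546 residues, in which a globin domain is joined to a part resembling a neuropeptide receptor. It had 2870.4, 1885 and 2077 normalized counts in mutants and 2990.3, 2503 and 2369.7 in controls. Mutant replicate 1 lay within the control range, and the difference was also -0.22 (SE 0.20; adjusted p 0.452 by limma).

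The gene glb-13 (WBGene00008957, X chromosome), linked to resistance to oxidative stress, had 389, 306 and 328 normalized counts in mutants and 401, 379.6 and 371 in controls, a difference of -0.18 (SE 0.18; adjusted p 0.509 by limma). Here mutant replicate 1 lay within the control range. The gene glb-26 (WBGene00011913, chromosome I) encodes a lipid-modified globin that regulates the defecation cycle. It had 45.5, 144 and 38.8 normalized counts in mutants and 26.1, 50.1 and 46.6 in controls. Mutant replicate 2 stood alone above the other 5 libraries. The difference was 0.67 with a wide error (SE 0.49; adjusted p 0.358 by limma), and it was 0.091 without that library. The opposite-strand gene T22C1.1, whose exons overlap those of glb-26, had 901, 858 and 934 normalized counts in mutants and 836, 665 and 924 in controls, so that mutant replicate 2 did not stand out there.

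The most abundant globin by normalized count was glb-18 (WBGene00009917, chromosome I), with 2973, 2463 and 2269.8 in mutants and 4236, 3414 and 2663 in controls. The highest mutant library exceeded the lowest control, and the difference of -0.40 (SE 0.20) did not pass (limma adjusted p 0.186). The next most abundant, glb-25 on chromosome V, had 2513, 1889.6 and 1985 normalized counts in mutants and 3006, 2695 and 2779 in controls. Its groups did not overlap. The difference of -0.42 (SE 0.17) had an adjusted p of 0.107 in the fit without pairing and 0.0489 with the replicate number as a block (limma, Benjamini-Hochberg), which made it the 16th globin called in that fit, where 26.3% of all genes were called, 15.2% lower and 11.1% higher.

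Of the 12 members not yet described, glb-23 and glb-30 had every mutant library below every control without passing the test. The gene glb-23 had 403, 413 and 387 normalized counts in mutants and 572, 571 and 464 in controls. The less abundant glb-30 had 79.6, 76.4 and 87.8 in mutants and 93.7, 93.9 and 124 in controls. Their differences were -0.41 (SE 0.17) and -0.34 (SE 0.24), with adjusted p of 0.121 and 0.341 (limma, Benjamini-Hochberg).

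The groups overlapped for the other 10 members, glb-4, glb-8, glb-10, glb-14, glb-16, glb-17, glb-21, glb-29, glb-31 and glb-34. Their differences ran from -0.48 for glb-10 to 0.025 for glb-14, with adjusted p from 0.152 to 0.934 (limma, Benjamini-Hochberg). The abundant gene glb-14 was almost level between the groups, at 1394, 1140.3 and 1268 normalized counts in mutants and 1486, 1206 and 1067 in controls. For glb-29 mutant replicate 1, at 876 normalized counts, lay among the controls of 937, 731 and 720.3, whereas mutant replicates 2 and 3 had 439 and 581. Of these 10, the least abundant were glb-8, with 34.1 to 81.0 normalized counts in mutants and 50.1 to 81.4 in controls, and glb-31, with 36.6 to 73.3 in mutants and 42.8 to 58.8 in controls. Every globin lay above the worth of 3 reads in every library, which is 2.44 normalized counts in the deepest library and 3.79 in the shallowest.

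To compare levels between members, normalized counts were divided by the length of annotated exon. On this scale glb-18 was the highest, at 2212 ± 313 normalized counts per exon kilobase in mutants and 2961 ± 678 in controls (SD, n = 3 each). It was followed in controls by glb-25 (1434 ± 226 in mutants and 1903 ± 108 in controls) and glb-11 (1117 ± 175 in mutants and 1686 ± 202 in controls). The lowest was glb-8, at 37.6 ± 14.97 in mutants and 39.5 ± 10.5 in controls. In the order of control levels, neighbours lay further apart than their SDs only between glb-18 and glb-25 and between glb-28 and glb-30. The lowest members were glb-30, at 90.2 ± 6.52 in mutants and 115 ± 19.5 in controls, then glb-21, glb-31, glb-26 and glb-8; all others were at 253 per exon kilobase or more in controls.

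**Figure D4:**
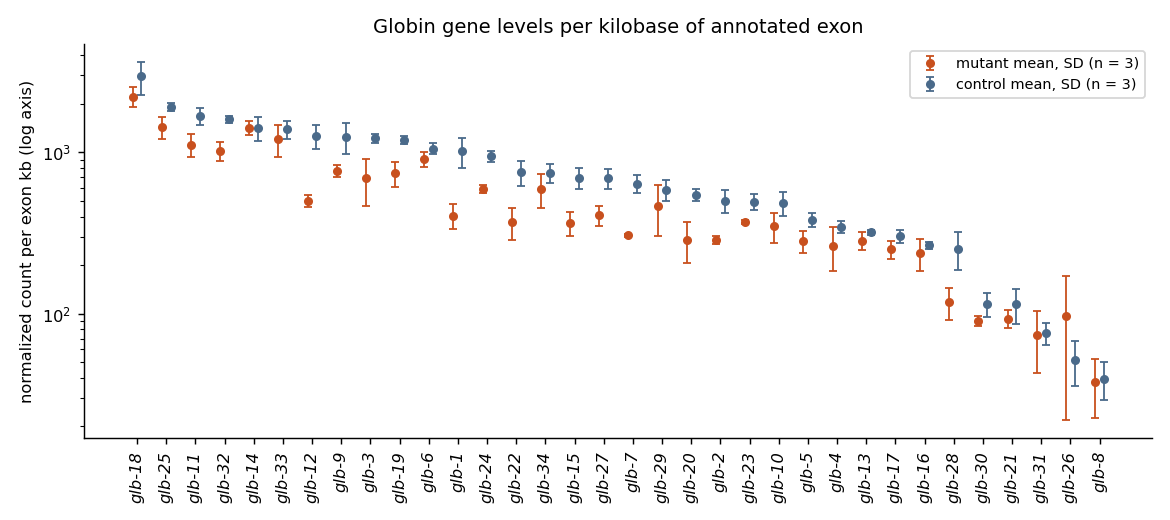
Mean and SD of 3 libraries of the normalized count per kilobase of annotated exon (log axis) for each globin gene, mutant left and control right of each pair, in the order of the control level. The family spans from 39.5 to 2961 in controls. Genes that fell lie between rank 3 (glb-11) and rank 29 (glb-28) of the order, and all but glb-28 are at the level of rank 21 (glb-2) or higher.

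The genes that fell were spread over the genome. In the annotation 10 globin genes lie on chromosome V, 7 on II, 6 on IV, 5 on X, 3 on I and 3 on III. The 15 genes that fell comprised 5 on V, 3 on II, 3 on IV, 2 on III, 2 on X and 0 on I. The closest pair of globin genes is glb-5 and glb-6, and the next closest, glb-23 and glb-2, has 14 protein-coding genes between its members. Control levels of the genes that fell ranged from 200.3 normalized counts for glb-28 to 1899 for glb-9, inside the range of the genes not called, 40.9 to 3438.

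Whether counting used strand is not given in the sources used here, so a globin that shares exons with a gene on the other strand may carry reads of both. Exons of 17 of the 34 globins overlap another gene, 16 of them a gene on the opposite strand. The overlap concerned 7 of the 15 genes that fell and 10 of the 19 others. None of the overlapping genes that were tested passed the threshold. For glb-15 the partner is nlp-24, a neuropeptide-like gene, with 154, 245 and 134 normalized counts in mutants and 389, 192 and 209 in controls, a difference of -0.54 (limma adjusted p 0.258). For glb-28 it is the nuclear receptor gene nhr-91, with 205, 241 and 236 in mutants and 241, 198 and 254 in controls, a difference of -0.021. The groups overlapped for both partners. The genes glb-12, glb-1, glb-22, glb-20, glb-32, glb-3, glb-9 and glb-11, which fell, share exons with no other annotated gene.

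Genes of the pathways around the globins were set beside them, using lists drawn up from general knowledge. Of 58 listed genes, 57 were in the table and 55 were tested, of which 18 fell and 2 rose, beside 10.5% lower and 7.56% higher over all 17900 features tested. With the replicate block 24 fell and 4 rose, beside 15.2% and 11.1% over all features. The oxygen-sensing neuron list holds guanylate cyclases, channel subunits, phosphodiesterases, npr-1, peptides and transcription factors known from the URX, AQR, PQR and BAG neurons. These genes need not be limited to those neurons, and the libraries pool neurons, so a lower value cannot be placed in them. Of the 20 genes in the list, 10 fell while 0 rose. The cyclic nucleotide-gated channel subunit tax-2 had 556, 697 and 532 normalized counts in mutants and 1036, 1165 and 987 in controls (difference -0.84, limma adjusted p 0.0107). The soluble guanylate cyclase gcy-37 had 1102, 1026 and 1302 in mutants and 1808, 1684 and 1949 in controls (-0.67, adjusted p 0.0211). For both genes all mutants were below all controls. The peptide gene flp-8 and the phosphodiesterase gene pde-2 fell by 0.95 and 0.64 on the log2 scale (limma adjusted p 0.0214 and 0.0334). Of the 18 alternatives, tax-2 passed in 16, flp-8 in 14, gcy-37 in 13 and pde-2 in 10.

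The cyclase gcy-35, which forms the oxygen sensor of URX with GCY-36, was level between the groups at 1194, 1390 and 1007 normalized counts in mutants and 1194, 1120.2 and 1236 in controls, a difference of 0.0056 (adjusted p 0.984 by limma). Its partner gcy-36 had 369, 417 and 491 in mutants and 656, 455 and 526 in controls, a difference of -0.35 that did not pass (adjusted p 0.241). Both were singled out after their values were seen, for their part in the same sensory step as glb-5. The list's cyclases gcy-31, gcy-32, gcy-33 and gcy-34, also named after their values were seen, did not pass either. Their differences were 0.011, -0.20, -0.47 and 0.086, in that order. The 10 lower calls of the oxygen-sensing list became 3 with libraries scaled to equal totals, 4 with median centring and 5 with scaling without the 20 highest genes. They became 6 without a filter and 1 without a variance trend. Over all genes, 7.58%, 8.6%, 8.75%, 5.04% and 7.25% were called lower in these fits, in the same order. The 10 calls became 1, 2 and 1 without control replicates 1, 2 and 3, and 5 and 1 without mutant replicates 2 and 3. Beside them, 5.38%, 4.86%, 5.61%, 10.1% and 5.55% of all genes were called lower, in the same order.

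The hypoxia response list holds the factor hif-1, which turns on genes in low oxygen, and egl-9 and vhl-1, which lead to its breakdown in ample oxygen. The list also holds cysl-1, cysl-2, aha-1, rhy-1, nhr-57, phy-2 and swan-1. Of its 10 genes 4 fell and 0 rose. These were the factor itself, 2 genes that lead to its breakdown and 1 that counters them. The prolyl hydroxylase gene egl-9 had 2784, 1683 and 1599 normalized counts in mutants and 5254, 8022 and 5619.8 in controls, a difference of -1.66 (SE 0.25; adjusted p 0.00248 by limma). The gene cysl-1, whose protein binds and restrains EGL-9, had 979.6, 1198 and 864 in mutants and 2172 to 3143 in controls, with a difference of -1.33 (adjusted p 0.00246). The groups did not overlap for either gene, and both passed in all 18 alternatives. The factor hif-1 had 13958, 11039 and 10207 in mutants and 22654, 19332 and 18634 in controls (-0.79, adjusted p 0.0211). The ubiquitin ligase subunit vhl-1 was far less abundant, with 32.9, 32.5 and 45.6 in mutants and 78.4, 78.2 and 84.5 in controls (-1.12, adjusted p 0.0235). Of the 18 alternatives, vhl-1 passed in 14 and hif-1 in 13. The count of 4 became 2 without each of the control replicates 1, 2 and 3, beside 5.38%, 4.86% and 5.61% of all genes called lower. In the fit without control replicate 3, 1 gene rose. With the replicate block 6 fell and 1 rose, beside 15.2% and 11.1% over all genes. The gene that rose with the block was phy-2, named after its values were seen. Its difference was 0.88, with a limma adjusted p of 0.0760 in the main fit and 0.0375 with the block.

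Of 9 heme-handling genes listed, 8 were in the table and 6 were tested, of which 1 fell. The heme transporter gene hrg-1 had 49.3, 65.8 and 33.8 normalized counts in mutants and 113, 150.2 and 161 in controls (-1.53, limma adjusted p 0.00903). Of 19 redox defence genes, 3 fell and 2 rose, which is close to the shares over all features. The thioredoxin gene trx-1, known from the ASJ sensory neurons, had 7.58, 27.6 and 10.97 in mutants and 86.03, 80.3 and 114 in controls (-2.70, adjusted p 0.00428). The superoxide dismutase gene sod-5 had 55.6, 89.4 and 27.9 in mutants and 734, 1359 and 84.5 in controls, so that control replicate 3 lay inside the mutant range (-3.06, adjusted p 0.0340). The third gene that fell, sod-3, had 15.2 to 65.8 in mutants and 51.5 to 402 in controls; it was named after its values were seen. Those that rose were the glutathione reductase gsr-1, at 759.6, 1035 and 827 in mutants and 502, 461 and 599.9 in controls (0.74, adjusted p 0.0243), and the methionine sulfoxide reductase msra-1 (0.64, adjusted p 0.0380). Of the 18 alternatives, sod-5 and gsr-1 each passed in 14 and msra-1 in 11, whereas trx-1 and hrg-1 passed in all 18. With the replicate block 5 redox genes fell and 3 rose, and without a variance trend 1 fell and 0 rose. Over all genes, 15.2% fell and 11.1% rose with the block, and 7.25% fell without a variance trend. Leaving out any of control replicate 1, control replicate 2 and mutant replicate 3 left 1 lower and 0 higher redox genes, beside 5.38%, 4.86% and 5.55% of all genes called lower. Leaving out either control replicate 3 or mutant replicate 1, or using no filter, left 1 higher gene. Calls in either direction over all genes were 9.17%, 23% and 8.53% in these fits.

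**Figure D5:**
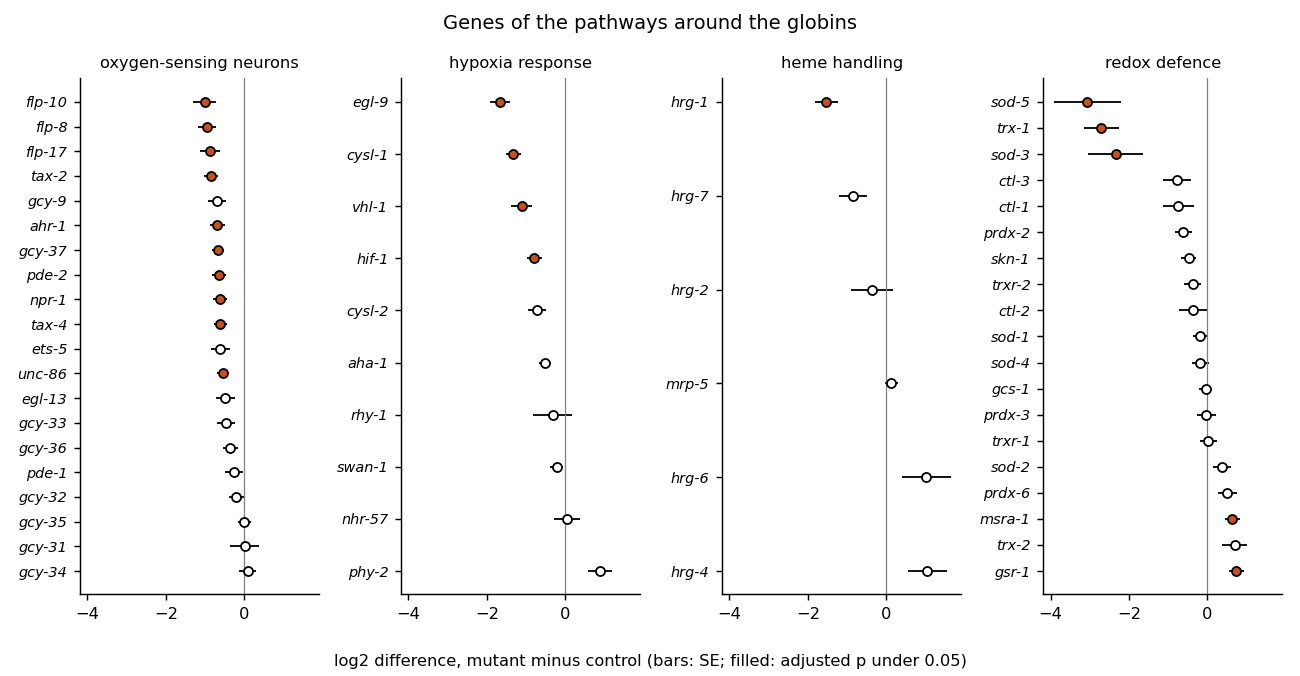
Log2 differences (mutant minus control) with SE for the tested genes of 4 lists around the globins, where filled points have an adjusted p under 0.05. In the oxygen-sensing list 17 of 20 points lie below 0, and in the redox defence list filled points lie on both sides of 0.

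Cell type markers moved in both directions, beside 10.5% of all genes called lower and 7.56% higher. Of the 30 pan-neuronal genes 8 fell and 0 rose, with a median difference of -0.54, and of the 12 body wall muscle markers 0 fell and 1 rose, with a median of -0.082. Of the 7 pharynx muscle markers 4 rose, with a median of 0.72. The marker counts moved when single libraries were left out, and so did the shares over all genes. The 8 lower pan-neuronal genes became 18, 4 and 1 without mutant replicates 1, 2 and 3, and 0, 1 and 0 without control replicates 1, 2 and 3. Over all genes, 14.1%, 10.1% and 5.55% were called lower without these mutant replicates, and 5.38%, 4.86% and 5.61% without these control replicates. The 8 became 4 with median centring, beside 8.6% of all genes, and 1 without a variance trend, beside 7.25%. The 4 higher pharynx muscle markers became 2 without mutant replicate 2, and 0 without mutant replicate 3, control replicate 2, control replicate 3 or a variance trend. Over all genes, calls in either direction made up 18.1% in the main fit and 16.6% and 8.58% without mutant replicates 2 and 3. They made up 8.82%, 8.43% and 9.17% without control replicates 1, 2 and 3, 8.53% without a filter and 12.6% without a variance trend. The 1 higher body wall muscle marker was lost without mutant replicate 3, control replicate 2 or control replicate 3. Without control replicate 2, 1 body wall muscle marker was called lower. Of the tested markers of other tissues, 0 of 9 fell and 0 rose for intestine, 1 of 7 fell and 0 rose for epidermis, 0 of 9 fell and 3 rose for germline, 0 of 5 fell and 0 rose for glia, and 0 of 4 fell and 0 rose for coelomocytes. The 3 higher germline markers became 2 and 0 without mutant replicates 2 and 3, 0, 1 and 1 without control replicates 1, 2 and 3, 2 without a filter and 0 without a variance trend. The 1 lower epidermis marker was lost without mutant replicate 2, without mutant replicate 3, without each control replicate, without a variance trend, under equal totals and with median centring. Under equal totals 7.58% of all genes were called lower. With the replicate block 17 pan-neuronal genes fell, 5 germline markers rose, 2 glia markers fell, and 1 marker fell and 1 rose for both intestine and epidermis. Over all genes, 15.2% fell and 11.1% rose with the block. The summed normalized counts of the pharynx muscle markers were 57336 to 79712 in mutants and 29193 to 44500 in controls, without overlap. The sums of the pan-neuronal genes were 418534 to 766386 in mutants and 846348 to 1063680 in controls, also without overlap. The sums of the germline markers overlapped, at 3528 to 3899 in mutants and 3218 to 3818 in controls. Yet the median difference of the 9 tested germline markers was 0.82, and 1 of them lay below 0. That marker, mes-3, was the most abundant of the list, with a mean of 1844 in mutants and 2368 in controls. No marker of these lists was at 0 in every library. Their part in the globin differences was not tested.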

How the data were processed

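RNA sequencing libraries of immunoprecipitated neuronal nuclei were grouped as mutant or control by their sample titles, 3 in each group. The deposited signal consists of gene counts scaled by the authors with size factors, per the labels' tool names and the table's own name; featureCounts, STAR and DESeq2 are named in the submitters' processing notes. Their versions and settings, the genome build and the annotation are not given in the sources used here. Every value was a whole multiple of 1 read's worth: 100% of values came out whole within 0.01 reads. No column was left out.

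Groups were compared with limma 3.58.1 (R 4.3.3), run on log2(normalized count + 1) with a variance trend and group as the sole factor, adjusted by Benjamini-Hochberg over the 17900 features with a mean of at least 10, at a threshold of 0.05. Log2 differences on this scale understate changes of low genes. Alternatives were edgeR 4.0.16 (quasi-likelihood, TMM) and DESeq2 1.42.0 on recovered reads, other pseudocounts, filters and scalings, no variance trend, a replicate block and leaving out each library. The titles number the replicates of both groups. Same-numbered libraries deviated together (correlations across genes 0.25, 0.20 and 0.15), so the fit with the replicate number as a block was included. The main fit, which gave the limma p-values unless the block is named, does not use this pairing. The tests were checked on simulated counts, which held no effect shared by same-numbered libraries and so cannot speak to that feature of the data. The members, lists and alternatives were chosen with earlier results of these data known.

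Values in every library are given for globins called with or without the block, those of known role (glb-1, glb-5, glb-6, glb-12, glb-13, glb-26 and glb-33) and the most abundant, and for some others; in each pathway list, the called genes with the smallest adjusted p, up to 4, are named. Outside this rule, sod-3, phy-2, mes-3, some pan-neuronal genes and the cyclases gcy-31 to gcy-36 were named after their values were seen. Exon lengths, overlaps and chromosomes come from the WBcel235 annotation, which may not be the one used for counting, so no coordinates are given. No protein or promoter sequence was used here.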

Additional observations from a re-analysis of the deposited data

How the results depend on the processing

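The 15 globin genes called lower passed in 209 of their 270 tests across 18 alternatives. Their difference stayed below 0 in all 270. That adds little on direction, since they were called lower in the same libraries and several alternatives leave the fitted difference unchanged. The count of 15 was 5 without a variance trend, beside 7.25% of all genes. It was 3 to 16 when each library in turn was left out, beside 4.86% to 14.1% of all genes. No alternative called a globin higher, and the cause was not tested. Both edgeR, which called 3309 genes on the recovered reads, and DESeq2 called the same 15. Equal totals gave 10 lower globins, beside 7.58% of all genes, and a family median of -0.26. The median of all genes moved up to 0.15. Rescaling a library shifts all its genes nearly alike. The family median relative to all genes, -0.41 as deposited and under equal totals, could therefore hardly change. With each library left out in turn the family median was -0.63 (without mutant replicate 1) to -0.38.

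The 18 lower pathway genes were 9 under equal totals, 6 without a variance trend, 24 with the replicate block and 5 to 18 with a library left out. Over all genes, 7.58%, 7.25%, 15.2% and 4.86% to 14.1% were called lower, in the same order. The 2 higher pathway genes were 1 without a filter, 0 without a variance trend, 4 with the replicate block (same-number correlation 0.20) and 0 to 2 with a library left out. Calls in either direction over all genes were 8.53%, 12.6%, 26.3% and 8.43% to 23%, in the same order. Apart from glb-25, the replicate block, which the main fit leaves out, changed no globin's call. Directions reversed only for globins that were not called: glb-14 ran from -0.084 to 0.16 with a library left out; glb-31 was 0.071 under equal totals, 0.0036 with scaling without the 20 highest genes, and -0.42 to 0.077 with a library left out; and glb-8 was 0.048 under equal totals and -0.39 to 0.22 with a library left out. At this depth every globin was above 3 reads, a floor that covers counting error only.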

Other observations

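Across the 34 globin genes, the log2 difference had Spearman correlations of -0.32 with the control level in normalized counts, -0.08 with the length of the gene's span and 0.07 with the length of the annotated protein. These describe genes of the same 6 libraries, which are not independent, and no test was made.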
